A study of Mus musculus with 21 samples.

Results

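Interferon gamma inducible GTPases were followed across the forebrains of 21 mice. The 10 genes, out of 55401 in the count table, were Gbp2, Gbp3, Gbp5, Gbp6, Gbp7 and Gbp9 of the guanylate-binding protein family and Irgm1, Irgm2, Igtp and Iigp1 of the immunity-related GTPase family. They were chosen by symbol, matched to the Ensembl mouse gene identifiers of the tables, and all 10 were found and passed the filter on low counts in every comparison. The study asked how human APOE isoforms alter tau-driven disease.

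In all 6 groups both copies of mouse Apoe were replaced by a human allele. The parental groups were 3 E2H (APOE2), 3 E3H (APOE3) and 3 E4H (APOE4) mice without a tau transgene, aged 9 to 10 months and kept on a C57BL6 background. The PS19 groups, with 4 mice each for APOE2 (PS/E2H), APOE3 (PS/E3H) and APOE4 (PS/E4H), carried in addition, on 1 chromosome, the PS19 transgene, human tau with the P301S mutation driven by the mouse prion promoter. They descend from a single transgenic line kept on a B6/C3H background and crossed to the APOE lines, and were taken when the hindlimbs were paralyzed. Between PS19 mice and the parental mice of the same APOE line, tau genotype, paralysis, age at death and strain background therefore cannot be told apart. The paper reports later paralysis in PS/E3H than in PS/E2H or PS/E4H mice. Comparisons between PS19 groups, and of PS19 effects between lines, thus do not separate APOE isoform from age at death.

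Interferon gamma binds its receptor and raises, among others, the transcription factor IRF1. The GTPases described here are among the genes that the cytokine switches on in mouse cells, through promoter motifs called GAS and ISRE. Type I interferons act on ISRE motifs, and many of the same genes respond to both kinds of interferon. In infected cells the guanylate-binding proteins and immunity-related GTPases assemble on the membranes around bacteria and parasites, break them open and pass the contents on to inflammasomes and autophagy. In the brain, microglia, astrocytes and endothelial cells can all make them.

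The genes sit in a few clusters of related copies (GENCODE M21 annotation of GRCm38). Gbp5 (ENSMUSG00000105504, chr3:142493978-142522344), Gbp7 (ENSMUSG00000040253, chr3:142530342-142550149), Gbp3 (ENSMUSG00000028268, chr3:142560026-142573209) and Gbp2 (ENSMUSG00000028270, chr3:142620602-142638008) lie side by side on the plus strand of chromosome 3. Gbp9 (ENSMUSG00000029298, chr5:105077630-105139539) and Gbp6 (ENSMUSG00000104713, chr5:105270702-105293698) lie on the minus strand of chromosome 5. Irgm1 (ENSMUSG00000046879, chr11:48861968-48871683, minus strand), Igtp (ENSMUSG00000078853, chr11:58199556-58207591) and Irgm2 (ENSMUSG00000069874, chr11:58199618-58222782) are on chromosome 11, and Iigp1 (ENSMUSG00000054072, chr18:60376027-60392634) is on chromosome 18. Every one of them is protein coding, and the values are counts over whole genes.

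Near-identical copies limit what a count can be assigned to. Of the 50-base windows in the transcripts of Gbp6, 70.7% also occurred in another gene, 65.0% in Gm43302, which overlaps Gbp6 on the same strand. Igtp and Irgm2 overlap on the same strand too, and shared 11.8% and 7.77% of their windows with other genes. The share was 12.7% for Gbp7, 8.05% for Gbp9, 3.75% for Gbp3, 2.03% for Gbp2, 1.69% for Iigp1, 1.44% for Gbp5 and 0.310% for Irgm1. How the counting divided reads that match more than 1 of these copies is not given in the sources used here, so Gbp6 in particular is uncertain.

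The 30-base stretches around the ISRE-type letters nearest to the start are shown because this motif is what the promoters of the GTPases had in common. RefSeq (GRCm38.p6) gave a promoter for 7 of the 10 genes, and the letters searched in its 250 bases before the start, on both strands, were GAAA and again GAAA with any 2 bases between them. This RefSeq start can differ from the edge of the gene interval given above. The stretches of Gbp5, Irgm1 and Irgm2 lie inside those intervals, and that of Gbp2 crosses the edge. For Irgm2 the bases just after the RefSeq start were not found in a GENCODE transcript of the gene. Capitals mark the match, or the overlapping matches where there were 2, and each line is read 5′ to 3′ along the strand of its gene.
Gbp2 (chr3:142620594-142620623, plus strand): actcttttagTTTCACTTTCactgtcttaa
Gbp3 (chr3:142559992-142560021, plus strand): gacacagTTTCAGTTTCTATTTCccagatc
Gbp5 (chr3:142496759-142496788, plus strand): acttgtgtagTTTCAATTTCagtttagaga
Gbp7 (chr3:142530273-142530302, plus strand): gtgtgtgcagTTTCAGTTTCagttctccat
Irgm1 (chr11:48871428-48871457, minus strand): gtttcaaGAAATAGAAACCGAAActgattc
Irgm2 (chr11:58214903-58214932, plus strand): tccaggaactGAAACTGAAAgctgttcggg
Igtp (chr11:58199512-58199541, plus strand): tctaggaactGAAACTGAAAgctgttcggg

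All 7 of these genes held the ISRE-type letters, against 3.46% of the 27025 genes with a RefSeq promoter. In Irgm1 the match nearest to the RefSeq start ended 14 bases before it. The GAS-type letters TTCNNNGAA were present in 4 of the 7 (Gbp5, Gbp7, Igtp and Irgm2), against 8.13% of genes. Igtp and Irgm2 had nearly the same upstream sequence, with 197 of 221 aligned positions identical (89.1%) and a longest identical run of 55 bases, so their matches are not separate observations. Among the genes of the lists described further on, the ISRE-type letters were held by 9 of the 20 type I interferon response genes with a promoter, 4 of 5 other GTPases, 3 of 18 other interferon gamma inducible genes, 3 of 13 genes of the signal chain and 0 of 17 vacuole and autophagy partners. A match is a description of the letters and not a measured binding site.

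The total count per mouse was 59265459 to 75932183, and the GTPase with the fewest counts in a single mouse was Iigp1 with 54. Mouse Apoe, replaced in every group, had 617 to 1164 counts. A total of 4 libraries, E4H replicate 3, PS/E2H replicate 2 and PS/E4H replicates 1 and 4, held 164 to 189 counts of the X-inactivation transcript Xist and 2517 to 4246 of the Y-linked Ddx3y, whereas the other 17 held at least 12188 counts of Xist and at most 21 of Ddx3y. The methods describe the few mice in these groups as the females and the remaining mice as males, the reverse of what the counts show, and sex is not among the labels of the mice. Counts that rest on these 4 libraries are given with and without them.

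All 10 GTPases were transcribed at a low level in every mouse. Per transcript length, in FPKM, which scales fragments by transcript length and library depth, Igtp stood highest in all 6 groups, at 2.78 ± 0.17 (SD, n = 3) in E4H and 4.95 ± 1.7 (SD, n = 4) in PS/E4H mice. Its mice lay above those of the next gene, Irgm1, in each of the 3 parental groups and in PS/E2H. In PS/E3H and PS/E4H mice the FPKM of Igtp overlapped that of Gbp2, the next in order. Irgm1, Gbp2, Gbp3 and Irgm2 followed in every group in varying order, with most neighbours overlapping. Iigp1 was lowest in FPKM in 5 groups, at 0.265 ± 0.095 (SD, n = 3) in E4H mice, and Gbp9 was lowest in PS/E2H mice with 0.661 ± 0.35 (SD, n = 4), overlapping Gbp5.

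Over the 3 APOE lines, 9 of the 10 GTPases were higher in PS19 than in parental mice and 0 were lower. Each passed an adjusted p of 0.05 in the quasi-likelihood test of edgeR (Benjamini-Hochberg over all genes), fitted to all 21 mice with the APOE line as a term. Of the 22863 genes tested 11.4% were higher by that rule and 9.63% lower. At the added limit of a 2-fold change, Gbp2, Gbp3 and Iigp1 were called, against 2.24% of genes. The median log2 fold change of the 10 was 0.89 and that of all genes -0.006. Gbp9, at 0.34 (SE 0.182, edgeR adjusted p = 0.2055), was the one that did not pass. In 0 of the 10 did every PS19 mouse lie above every parental mouse, against 1.38% of genes, and 1 to 7 of the 12 PS19 mice were not above the highest parental mouse. The 10 genes are measured in the same mice, and the comparisons by line use those mice again.

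**Figure D1:**
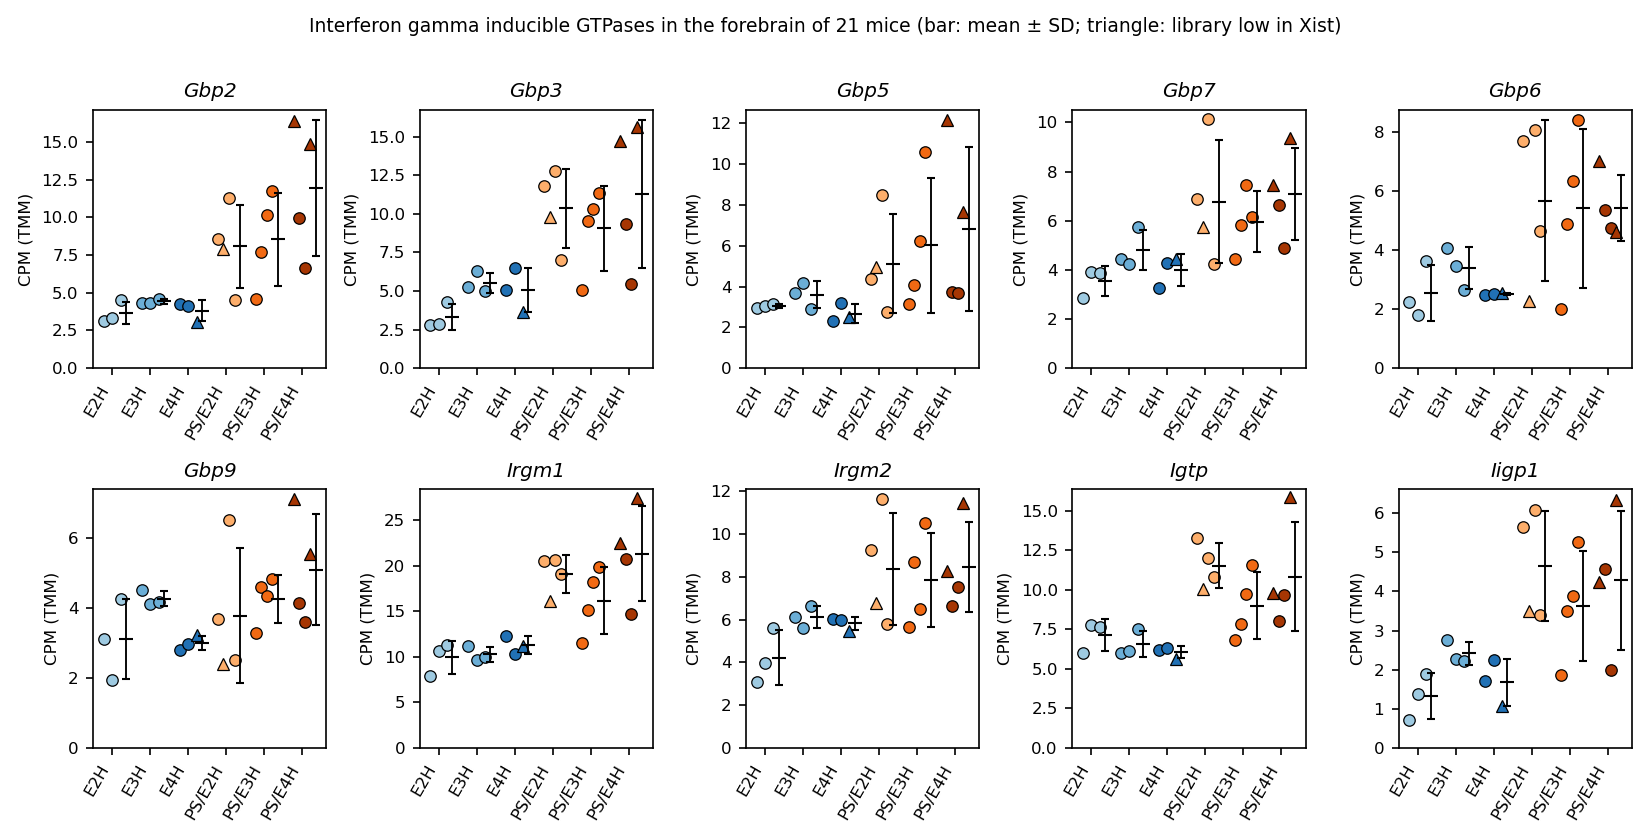
Each panel plots 1 GTPase, with the 6 groups on the horizontal axis and TMM-normalized CPM (counts scaled by library size, from 0) on the vertical axis. Points are single mice, bars the mean ± SD over 3 or 4 mice, and triangles the 4 libraries low in Xist. In Gbp2 every PS19 mouse but 1 lies above the highest parental mouse (4.62 CPM).

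Gbp2, one of the guanylate-binding proteins encoded on chromosome 3, carries a lipid anchor and coats the vacuoles of parasites and bacteria. In CPM, which scales counts by library size after TMM normalization, Gbp2 was at 3.13, 3.32 and 4.50 in E2H, 4.33, 4.34 and 4.62 in E3H, and 4.28, 4.14 and 3.04 in E4H mice. It was at 8.57, 7.93, 11.3 and 4.52 CPM in PS/E2H, 4.62, 7.68, 10.2 and 11.7 in PS/E3H, and 16.4, 9.95, 6.61 and 14.9 in PS/E4H mice. Within each line the PS19 mice did not overlap their parental mice, although PS/E2H replicate 4 and PS/E3H replicate 1 were barely above them. The pooled log2 fold change of Gbp2 was 1.24 (SE 0.190, edgeR adjusted p = 5.26e-05).

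Gbp3, the neighbour of Gbp2, was at 2.81, 2.88 and 4.25 CPM in E2H, 5.25, 6.28 and 5.01 in E3H, and 5.09, 6.49 and 3.60 in E4H mice. In PS19 mice Gbp3 was at 11.8, 9.79, 12.8 and 6.997 CPM in PS/E2H, 5.08, 9.51, 10.3 and 11.3 in PS/E3H, and 14.7, 9.31, 5.43 and 15.6 in PS/E4H. The groups were apart in the APOE2 line, and in the other two lines 1 PS19 mouse lay inside the parental range. Its pooled log2 fold change was 1.16 (SE 0.197, edgeR adjusted p = 0.000167).

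Gbp5, a protein that promotes assembly of the NLRP3 inflammasome, and Gbp7, which acts with the oxidase and autophagy machinery in infected cells, rose too. Gbp5 ranged from 2.32 to 4.19 CPM in parental mice and from 2.73 to 12.2 CPM in PS19 mice, with the 2 highest values in PS/E4H replicate 1 (12.2) and PS/E3H replicate 4 (10.6). Its pooled log2 fold change was 0.94 (SE 0.241, edgeR adjusted p = 0.00683), and 7 of 12 PS19 mice lay above the highest parental mouse. Gbp7 was at 4.11 ± 0.824 CPM (SD, n = 9) in parental and 6.61 ± 1.82 CPM (SD, n = 12) in PS19 mice, a log2 fold change of 0.69 (SE 0.154, edgeR adjusted p = 0.00248).

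On chromosome 5, Gbp6 rose and Gbp9 did not pass. Gbp6 was at 2.81 ± 0.736 CPM (SD, n = 9) in parental and 5.49 ± 2.08 CPM (SD, n = 12) in PS19 mice, a log2 fold change of 0.98 (SE 0.225, edgeR adjusted p = 0.00314). Because of its near-identical copies, the counts of Gbp6, Gm43302, Gbp10 and Gbp11 were also added up. That sum was 3.57 to 7.49 CPM in parental and 4.39 to 19.6 CPM in PS19 mice, with medians of 5.21 and 11.9. Within the sum, Gm43302 alone had 0 to 150 counts in parental and 0 to 519 counts in PS19 mice. Gbp9, which overlaps Gbp8 and Gbp4 on the same strand, was at 3.45 ± 0.853 CPM (SD, n = 9) in parental and 4.37 ± 1.46 CPM (SD, n = 12) in PS19 mice. In the APOE3 line its log2 fold change was -0.02 (SE 0.17), in the APOE2 line 0.27 (SE 0.382) and in the APOE4 line 0.76 (SE 0.234, edgeR adjusted p = 0.053).

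The regulatory immunity-related GTPases, Irgm1, Irgm2 and Igtp (also called Irgm3), hold the effector GTPases inactive on the cell's own membranes. Among the 10, Irgm1 had the smallest adjusted p. It was at 7.91, 10.6 and 11.3 CPM in E2H, 11.2, 9.61 and 10.01 in E3H, and 12.3, 10.3 and 11.2 in E4H mice. The PS19 mice had 20.5, 16.1, 20.6 and 19.1 CPM in PS/E2H, 11.5, 15.1, 18.2 and 19.8 in PS/E3H, and 22.5, 20.8, 14.7 and 27.4 in PS/E4H. PS/E3H replicate 1 (11.5 CPM) was the only PS19 mouse under the highest parental mouse (12.3 CPM), and within each line the groups did not overlap. The pooled log2 fold change of Irgm1 was 0.84 (SE 0.108, edgeR adjusted p = 6.55e-06).

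Igtp was at 5.996, 7.77 and 7.64 CPM in E2H, 6.02, 6.15 and 7.52 in E3H, and 6.20, 6.33 and 5.64 in E4H mice. It was at 13.3, 10.05, 11.99 and 10.8 CPM in PS/E2H, 6.79, 7.84, 9.75 and 11.6 in PS/E3H, and 9.76, 8.01, 9.67 and 15.8 in PS/E4H mice. All PS19 mice but PS/E3H replicate 1 lay above every parental mouse, and the pooled log2 fold change was 0.66 (SE 0.117, edgeR adjusted p = 0.000277). Irgm2, which overlaps Igtp, was at 5.39 ± 1.14 CPM (SD, n = 9) in parental and 8.23 ± 2.12 CPM (SD, n = 12) in PS19 mice (log2 fold change 0.62, SE 0.150, edgeR adjusted p = 0.00436).

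The effector Iigp1 (also called Irga6) is loaded onto the vacuoles of parasites and helps to rupture them. Iigp1 was at 0.716, 1.38 and 1.89 CPM in E2H, 2.75, 2.27 and 2.23 in E3H, and 1.70, 2.26 and 1.06 in E4H mice. It reached 5.64, 3.50, 6.07 and 3.39 CPM in PS/E2H, 1.87, 3.50, 3.87 and 5.27 in PS/E3H, and 4.23, 4.58, 1.98 and 6.33 in PS/E4H mice. The groups were apart in the APOE2 line and overlapped in the other two lines, and 10 of 12 PS19 mice were above the highest parental mouse. The pooled log2 fold change was 1.23 (SE 0.244, edgeR adjusted p = 0.000806), on the lowest counts of the 10 genes.

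**Figure D2:**
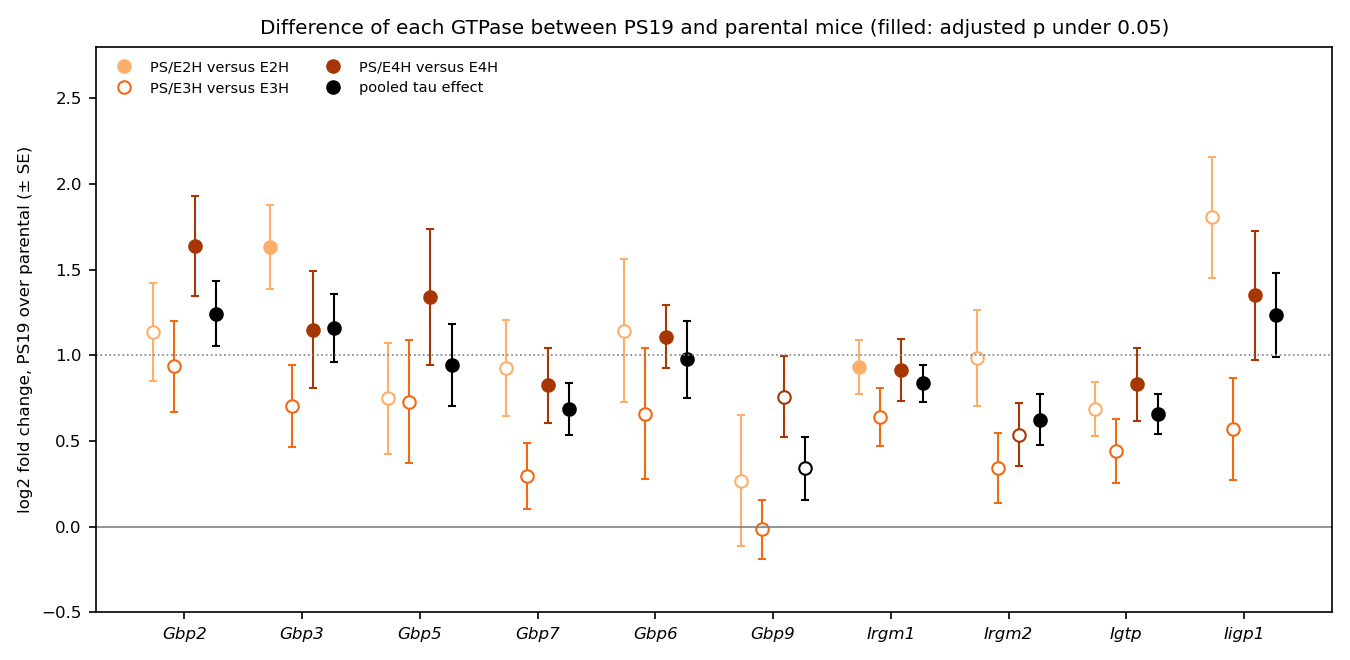
The log2 fold change of each GTPase between PS19 and parental mice (vertical axis, PS19 over parental) is drawn for the 3 APOE lines and pooled over them, with standard errors. Filled points passed an adjusted p of 0.05 in edgeR's test and the dotted line marks 2-fold; all pooled points but that of Gbp9 (0.34) are filled, and none of the APOE3 line.

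Line by line, the APOE4 comparison gave most calls. Between PS/E4H and E4H mice 8 of the 10 GTPases passed and were higher, against 8.62% of 20844 genes, and 5 of them (Gbp2, Gbp3, Gbp5, Gbp6 and Iigp1) also reached 2-fold, against 2.40%. The largest was Gbp2, at 11.96 ± 4.5 CPM (SD, n = 4) against 3.82 ± 0.681 CPM (SD, n = 3), a log2 fold change of 1.64 (SE 0.293, edgeR adjusted p = 0.00593). Irgm2 (0.54, edgeR adjusted p = 0.0752) and Gbp9 did not pass, although in both every PS/E4H mouse lay above every E4H mouse. DESeq2 passed all 10, against 11.6% of genes higher in that fit. Without E4H replicate 1, 2 or 3, 3, 2 and 3 passed, and without PS/E4H replicate 1 or 4, 4 passed each. The genes higher over all fell to 4.61%, 3.87% and 6.55% without those E4H mice and were 8.87% and 7.41% without those PS/E4H mice. Groups that did not overlap in this direction were seen for 8 of the 10 GTPases and for 15.0% of all genes.

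The PS/E4H libraries low in Xist, replicates 1 and 4, were the 2 highest of the 4 mice for 8 of the 10 genes, the exceptions being Gbp6 and Iigp1. Leaving out the 4 libraries low in Xist left 2 mice a group. Gbp6, whose counts are uncertain because of its near-identical copies, alone passed without them (log2 fold change 1.01, edgeR adjusted p = 0.0357). Of all genes 5.35% were higher in that fit, in place of 8.62%. Gbp2 was then at 0.97 (adjusted p = 0.0525), Gbp3 was at 0.34 in place of 1.15, and the log2 fold changes of all 10 stayed above 0. With the Xist class as a term and all 7 mice, 5 of the 10 passed, against 7.44% of genes. Pooled over the lines, 9 of the 10 passed without those libraries and also with the term, against 8.65% and 10.7% of genes.

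Between PS/E2H and E2H mice 2 of the 10 passed, against 0.669% of 20617 genes that were higher. They were Gbp3 (log2 fold change 1.63, SE 0.244, edgeR adjusted p = 0.0200) and Irgm1 (0.93, SE 0.157, edgeR adjusted p = 0.0319), and Gbp3 alone reached 2-fold, against 0.451% of genes. Iigp1 had the largest log2 fold change of this line, 1.80, with an adjusted p of 0.0570 by edgeR. In 7 of the 10 the groups did not overlap, against 6.67% of genes. DESeq2 passed 7, against 2.98% of genes higher in that fit. In edgeR 0 passed without E2H replicate 1 or 2 or without PS/E2H replicate 1 or 3, and 1 passed without E2H replicate 3, in fits where 0.136% to 0.461% of genes were higher.

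Between PS/E3H and E3H mice 0 of the 10 passed in edgeR's quasi-likelihood test, against 3.35% of 21251 genes that were higher, and 0 were called at 2-fold, against 1.20%. At an unadjusted p under 0.05 there were 4, against 21.4% of genes in either direction, and DESeq2 passed 3 (Gbp2, Gbp3 and Irgm1), against 7.90% of genes higher in that fit. The smallest adjusted p was that of Irgm1 (log2 fold change 0.64, edgeR adjusted p = 0.0542), followed by Gbp2 (0.94, edgeR adjusted p = 0.0690). The groups were apart for 2 of the 10, against 10.5% of genes. Without PS/E3H replicate 1, 5 of the 10 passed (Gbp2, Gbp3, Gbp6, Irgm1 and Iigp1), with Gbp2 at 1.14 (edgeR adjusted p = 0.00213). The genes that were higher over all rose from 3.35% to 6.76% in the same fit. Without any other single mouse of these groups 0 of the 10 passed, in fits where 0.485% to 2.25% of genes were higher.

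The difference between lines was tested itself, and for these genes no line was shown to respond more than another. In a model of all 21 mice, 0 of the 10 GTPases had a PS19 effect that differed between APOE4 and APOE3, between APOE2 and APOE3 or between APOE4 and APOE2 lines in edgeR's quasi-likelihood test, where 0.00% of the 22863 genes passed in each of the 3 tests. In DESeq2 0 of the 10 passed in the first and second of these tests. In the test of APOE4 against APOE2 0 of 6 passed, and Gbp5, Gbp6, Gbp9 and Iigp1 were given no adjusted p. DESeq2 passed 11, 9 and 198 genes over all in that order. At an unadjusted p under 0.05 the members numbered 0, 1 and 0, against 2.98%, 6.80% and 11.4% of genes, and the 1 was Iigp1, whose log2 effect was 1.23 larger in the APOE2 than in the APOE3 line (edgeR adjusted p = 0.727). The standard errors of these differences were 0.261 to 0.587.

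Among the parental lines 0 of the 10 GTPases passed in any of the 3 APOE comparisons in edgeR's quasi-likelihood test. Genes passing in either direction made up 0.178% between E2H and E3H, 0.162% between E4H and E3H and 0.216% between E4H and E2H mice. At an unadjusted p under 0.05 there were 3, 2 and 1 members in that order, against 14.1%, 6.67% and 12.4% of genes. DESeq2 passed 1, Gbp3, which was lower in E2H than in E3H mice (log2 fold change -0.74, adjusted p = 0.0404 by DESeq2), in a fit that passed 589 of 15147 genes. The median log2 difference of the 10 was -0.43 between E2H and E3H, -0.24 between E4H and E3H and 0.13 between E4H and E2H, against -0.008, -0.002 and 0.003 over all genes. Among PS19 mice 0 of the 10 passed in each of the 3 comparisons in edgeR or DESeq2. At an unadjusted p under 0.05 there were 0 as well, against 11.7% of genes between PS/E2H and PS/E3H, 6.51% between PS/E4H and PS/E3H and 12.3% between PS/E4H and PS/E2H. Of all genes 0.113% passed between PS/E2H and PS/E3H, 0.0197% between PS/E4H and PS/E3H and 0.119% between PS/E4H and PS/E2H mice.

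The GTPases varied together from mouse to mouse. The summed level of the 10 was 34.7 to 52.4 CPM in parental mice and 48.4 to 118.7 CPM in PS19 mice. PS/E3H replicate 1, the lowest PS19 mouse with 48.4 CPM, lay inside the parental range, and the next lowest, PS/E4H replicate 3, was at 62.9 CPM. After the mean of each group was removed, the 45 pairs of GTPases had a median Pearson r of 0.66 over the 21 mice, from 0.31 (Gbp9 with Igtp) to 0.93 (Gbp2 with Gbp3). These values describe mice that share a library and its depth across all 10 genes, and copies that share reads can raise them.

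**Figure D3:**
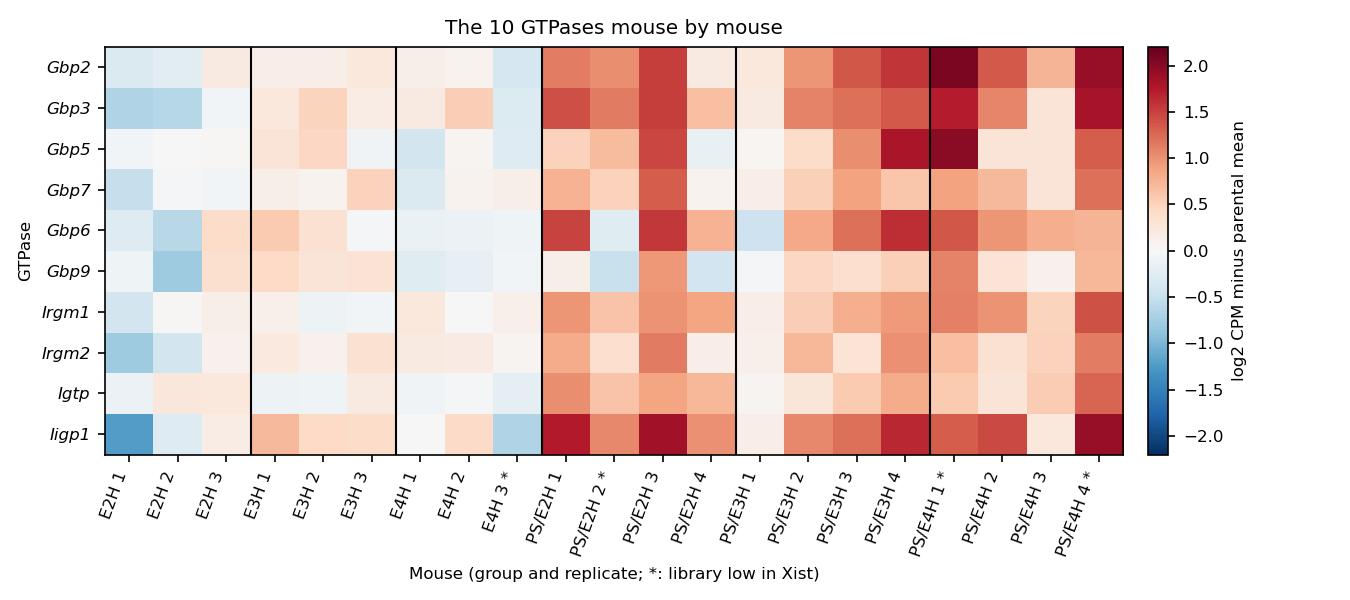
Each column is 1 of the 21 mice and each row a GTPase; the colour is log2 CPM minus the mean of the 9 parental mice, with red higher and blue lower, and asterisks mark the libraries low in Xist. PS/E3H replicate 1 is pale (median 0.12 on this log2 scale, 8 of 10 above 0), and PS/E2H replicate 3 (1.40) and PS/E4H replicate 4 (1.30) have the highest medians.

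Over the same 21 mice, the genes whose log2 CPM was most like the mean of the 10 standardized GTPases were taken by Pearson r. The first 5 were Ifih1 (r = 0.952), an RNA sensor, Ifit1 (0.941), which binds foreign RNA, Slfn8 (0.932) and Parp12 (0.931), both in none of the lists used here, and the immunoproteasome subunit Psmb9 (0.925). With group means removed, Ifih1 (0.894), Ddx58 (0.881) and Gbp4 (0.876) stood among the first 10, and Ranbp3l, in none of the lists used here, was first (0.904). Xist had r = -0.114 on that scale. Gbp4 overlaps Gbp9, a member of the score, on the same strand. With group means kept, Gbp4 had r = 0.423 and Ranbp3l 0.529. Neither passed in the pooled fit (log2 fold changes -0.11 and 0.07, edgeR adjusted p = 0.827 and 0.755). Every r here rests on the same 21 libraries and is a description.

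A family relative between Gbp3 and Gbp2 on chromosome 3, Gbp2b, stood apart from all of these genes. Gbp2b had 0 counts in 8 of the 9 parental mice and 4 in the remaining one, an E3H mouse, and 94 to 409 counts in every PS19 mouse. Its mean was 3.82 ± 1.69 CPM (SD, n = 4) in PS/E2H and 4.85 ± 1.32 CPM (SD, n = 4) in PS/E4H mice, at least 85.5-fold and at least 116-fold higher than 3 counts per parental library allow. PS/E3H mice were at 3.85 ± 1.77 CPM (SD, n = 4).

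Values of other genes around the cluster are given for comparison. Within 5 Mb of the Gbp2b start, 76 genes other than the Gbp genes were tested, of which 21 (27.6%) passed between PS19 and parental mice in the pooled fit, 12 higher and 9 lower, against 11.4% of all genes higher and 9.63% lower. Gm43049, a gene 1.90 Mb from Gbp2b and singled out after its values were seen, had 0 counts in all 9 parental mice and 3 to 19 in PS19 mice (edgeR adjusted p = 4.05e-05). The PS19 transgene has been mapped to chromosome 3 and came with a B6/C3H background. For Gbp2, Gbp3, Gbp5, Gbp7 and Gbp2b the presence of tau and the haplotype around the transgene therefore cannot be told apart. On the other chromosomes 5 of the 6 GTPases passed in the pooled fit (Irgm1, Irgm2, Igtp, Iigp1 and Gbp6), with log2 fold changes of 0.62 to 1.23. For these genes too, the presence of tau and strain background cannot be told apart.

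**Figure D4:**
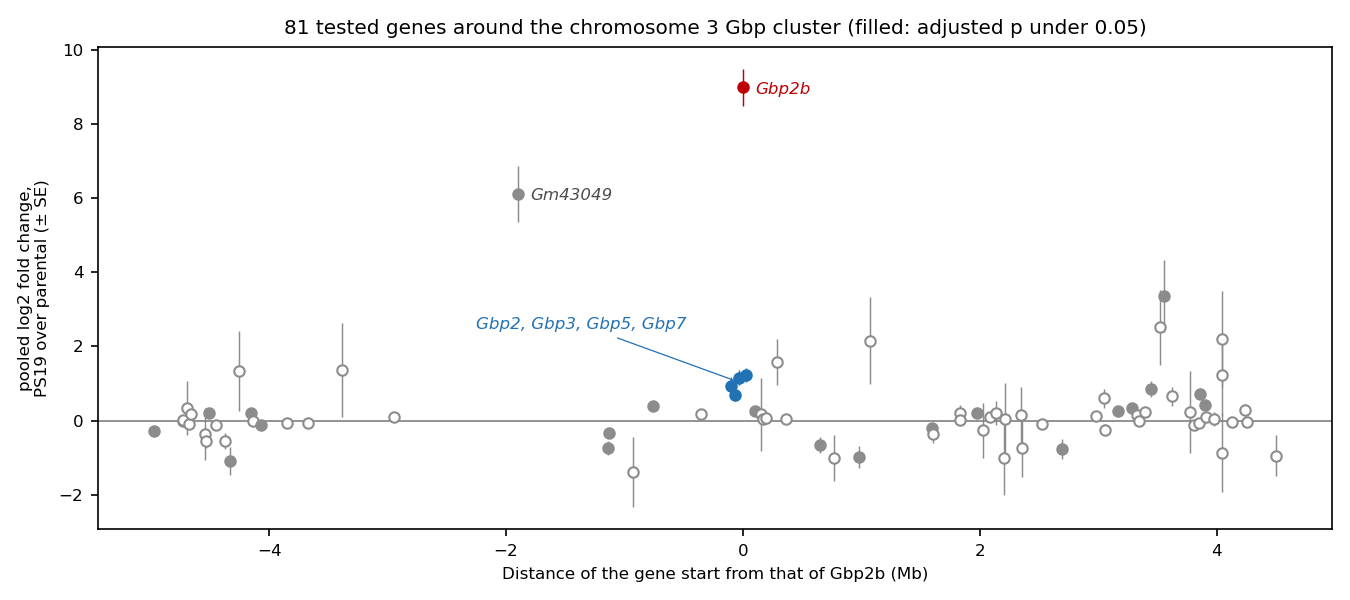
Pooled log2 fold changes (PS19 over parental, ± standard error) of the 81 genes tested around the Gbp cluster are plotted against the distance of their start from that of Gbp2b, in Mb. Gbp2, Gbp3, Gbp5 and Gbp7 (blue) lie between 0.69 and 1.24, while Gbp2b (red) and Gm43049, both near 0 counts in parental mice, have fitted values far above them that depend on the prior count.

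The interferon gamma pathway upstream of the GTPases was partly higher. Of 17 listed genes of the signal chain 16 were tested, and 7 passed and were higher in the pooled fit, 0 lower, with a median log2 fold change of 0.25. Of all genes 11.4% were higher and 9.63% lower in that fit. Interferon gamma itself (Ifng) had 0 to 4 counts per mouse in both genotypes and could not be tested. The receptor chain Ifngr1 rose (log2 fold change 0.51, edgeR adjusted p = 4.19e-06). Among the others that rose were Irf8 (1.21, edgeR adjusted p = 1.27e-06), a factor of myeloid cells and microglia, Nlrc5 (1.17, edgeR adjusted p = 0.000716), an activator of MHC class I genes, and Socs3 (0.84). Irf1, which encodes the factor IRF1 named above, was at 7.71 ± 1.11 CPM (SD, n = 9) in parental and 8.94 ± 1.65 CPM (SD, n = 12) in PS19 mice. It did not pass (0.21, edgeR adjusted p = 0.156).

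Other genes that interferon gamma induces rose with the GTPases. Of 26 listed, 25 were tested and 18 passed and were higher, 0 lower, with a median log2 fold change of 0.87. In the pooled fit 11.4% of all genes were higher and 9.63% lower. They included the MHC class II genes Cd74 (2.33), H2-Aa (2.16) and H2-Ab1 (1.94), the class I light chain B2m (0.99), the peptide transporter Tap1 (0.87), the immunoproteasome subunit Psmb8 (1.20) and the chemokines Cxcl9 (2.34) and Cxcl10 (1.73). Ido1, Nos2 and Cxcl11 did not pass. Of the 16 other guanylate-binding, immunity-related and Mx GTPases listed, 6 rose (Gbp2b, Gm12250, Gm4951, Gm4841, Mx1 and Mx2) and 0 fell, with a median of 0.44. The limit given above for the chromosome 3 cluster applies to Gbp2b here.

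Most of the listed type I interferon response genes rose too. All 28 listed were tested, and 24 passed and were higher, 0 lower, with a median log2 fold change of 0.997, among them Ifit1 (1.45), Oasl2 (1.42), Irf7 (1.28) and Zbp1 (1.79). The shares of all genes in the pooled fit were 11.4% higher and 9.63% lower. By line, 18 passed in the APOE4 comparison, 14 in the APOE2 and 0 in the APOE3 comparison, against 8.62%, 0.669% and 3.35% of genes higher. The median log2 fold changes of the 28 were 1.10, 1.33 and 0.505 in that order. Whether the lines differ was not tested for this list. Ifnb1 had 0 to 4 counts and Ifna4 0 counts in all mice, and of the 2 receptor chains Ifnar2 rose (0.27, edgeR adjusted p = 0.0152) and Ifnar1 did not pass (-0.01).

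Genes through which these GTPases act on vacuoles, autophagy and cell death rose in part. Of 22 listed and tested, 9 passed and were higher and 1, Atg12, was lower (-0.14, edgeR adjusted p = 0.00334), with a median of 0.12. That compares with 11.4% of all genes higher and 9.63% lower in the pooled fit. The conjugation factors Atg5, Atg7, Atg3 and Atg16l1 did not pass, at log2 fold changes of -0.07 to 0.12. Among those that rose were inflammasome and pore-forming components, with Gsdmd at 0.98 (edgeR adjusted p = 7.48e-05), Nlrp3 at 0.81, Il1b at 1.47, Casp4 at 0.58 and Aim2 at 0.47. The others were the ubiquitin ligase Trim21 at 0.62, the autophagy adaptor Sqstm1 at 0.20, Gabarap at 0.26 and Map1lc3b at 0.12.

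**Figure D5:**
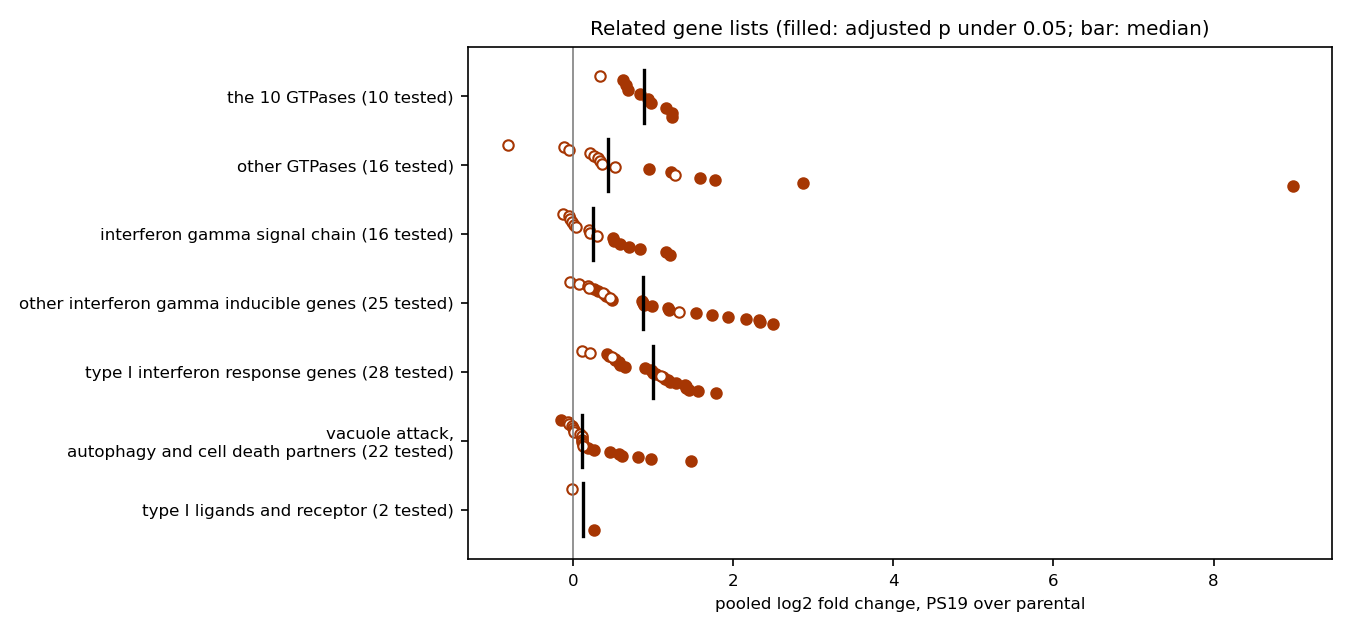
Points are the tested genes of each list, placed by their pooled log2 fold change between PS19 and parental mice; filled points passed an adjusted p of 0.05 and bars are list medians. The medians are 0.89 for the 10 GTPases, 0.87 for other interferon gamma inducible genes and 0.997 for type I interferon response genes, against 0.25 for the signal chain and 0.12 for the vacuole and autophagy partners; the point at far right is Gbp2b, whose fitted value depends on the prior count.

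Markers of microglia and astrocytes, which can make these GTPases, were higher in PS19 mice as well. The summed level of 9 microglia markers was 399 to 516 CPM in parental and 563 to 1031 CPM in PS19 mice, and 6 of the 9 passed in the pooled fit. Of all genes 11.4% were higher and 9.63% lower in that fit. All 5 markers of activated microglia passed, with Cst7 at 4.93 and Itgax at 4.33 on the log2 scale. The 6 astrocyte markers summed to 1725 to 2457 CPM in parental and 2998 to 4921 CPM in PS19 mice, and all 6 passed. In bulk tissue a larger number of such cells and more RNA per cell cannot be told apart, and the part of these shifts in the GTPase result was not tested.

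Markers of T and NK cells, the usual source of interferon gamma, summed to ranges that overlapped between the genotypes. The 9 T cell markers summed to 15.3 to 21.4 CPM in parental and 12.9 to 20.8 CPM in PS19 mice, with Cd3d and Cd8b1 at 0 counts in some mice of each genotype. Of the T cell markers Cd8b1 alone passed in the pooled fit (edgeR adjusted p = 0.0159), on 0 to 4 counts in parental and 0 to 16 counts in PS19 mice. The 7 NK cell markers summed to 0.239 to 0.523 CPM in parental and 0.185 to 1.07 CPM in PS19 mice, with Ncr1, Prf1 and Gzmb at 0 in some mice of each genotype. The 4 B cell markers were all tested in the pooled fit and 0 passed, at a median log2 fold change of 1.17. The 7 markers of monocytes, macrophages and neutrophils summed to 5.73 to 12.8 CPM in parental and 11.7 to 44.1 CPM in PS19 mice, 4 of the 7 passing in the pooled fit. The 7 endothelial markers overlapped, at 160 to 203 CPM in parental and 166 to 233 CPM in PS19 mice, with 3 of the 7 passing. Over all genes 11.4% were higher and 9.63% lower in the pooled fit. The 8 markers of forebrain neurons summed to 4815 to 6145 CPM in all mice, with 2 higher and 4 lower in the pooled fit. Of the 5 hindbrain markers 1 was higher there, and of the 4 pituitary markers 1 was lower. The neuron sum does not by itself show that the tissue was forebrain alone.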

How the data were processed

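Forebrain poly(A) RNA of 21 mice was measured. The authors used cutadapt for trimming, HISAT2 for alignment (GRCm38) and StringTie for transcript assembly, and deposited raw counts per gene and FPKM values scaled for length and depth. Versions and the derivation of the counts are not given in the sources used here. The mice were grouped by their labels, with 0 columns unmapped.

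Counts were fitted with edgeR 4.0.16 (R 4.3.3): TMM, filterByExpr (minimum count 10, minimum total 15), quasi-likelihood F test, each pair of groups on its own mice, a pooled fit with APOE line as a term, and 3 interactions in a model of 6 groups. Benjamini-Hochberg adjustment ran over all genes. A gene passed at an adjusted p under 0.05 and was called at 2-fold or more as well. The standard error is the log2 fold change over the root of F. Alternatives used DESeq2 1.42.0 and limma 3.58.1 on log2(FPKM + 1) and log2(FPKM + 0.1), other normalization and filters, a replicate block and each mouse left out. Those using Xist were added after the data were seen. Python 3.11.15 computed the rest and matplotlib 3.10.9 drew the figures. Fits were tested on simulated data.

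Total counts of 59265459 to 75932183 limit precision less than the 3 or 4 mice per group. Nothing states that mice are littermates or separate litters, and p-values set a group difference against the variation between these mice. Counts of 3 or fewer were treated as the floor. All 10 genes were named, with other genes by role from lists written from general knowledge and by likeness. The genes and lists were chosen with earlier results of these data known. One gene of the listed pathway is counted with its list and not reported here on its own.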

Additional observations from a re-analysis of the deposited data

How the results depend on the processing

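Pooled over the lines, 9 of the 10 GTPases passed the adjusted p under every alternative, including all 21 fits without 1 mouse, and Gbp9 under none. Genes higher over all made up 6.07% to 12.7% in those fits. With the 2-fold limit 3 were called, 9 with no limit on the fold, 0 with limma on log2(FPKM + 1), which compresses low values by construction, and 3 to 5 without 1 mouse (5 without PS/E3H replicate 1). For PS/E4H against E4H, 5 were called, and 8 with no fold limit. The number was 2 with no filter on low counts, 1 with limma on either FPKM scale, 3 with a replicate block, 1 without the 4 libraries low in Xist, 2 with the Xist class as a term and 1 to 6 without 1 mouse, 6 without PS/E4H replicate 3 and 1 without PS/E4H replicate 1. The 8 that passed became, in that order, 3, 3 (pseudocount 1) and 4 (pseudocount 0.1), 4, 1, 5 and 2 to 9, with 2 or 3 whenever an E4H mouse was left out. Genes higher over all, 8.62% in the main fit, were 3.60%, 7.08%, 7.55%, 4.14%, 5.35% and 7.44% in the same order. They were 3.87% to 9.24% without 1 mouse. For PS/E2H against E2H, 1 was called, 2 with no fold limit, 3 with DESeq2, 4 with a replicate block, 2 with all 6 groups in 1 fit, 2 without the libraries low in Xist, 2 with the Xist class as a term and 0 to 2 without 1 mouse. The 2 that passed became 7 with DESeq2, 1 without a filter, 1 with limma on log2(FPKM + 1), 5 with a replicate block, 4 with all 6 groups in 1 fit and 0 to 2 without 1 mouse. Genes higher over all, 0.669% in the main fit, were 2.98%, 0.200%, 0.403%, 1.07% and 1.91% in the same order. They were 0.136% to 0.656% without 1 mouse. For PS/E3H against E3H, 0 were called under every alternative except 0 to 1 without 1 mouse, and the 0 that passed became 3 with DESeq2, 1 with all 6 groups in 1 fit and 0 to 5 without 1 mouse. Genes higher over all, 3.35% in the main fit, were 7.90%, 3.08% and 0.485% to 6.76% in the same order. The cause of these shifts was not tested. The 6 APOE comparisons and 3 interactions gave 0 calls under every alternative, but DESeq2 gave an adjusted p to only 6 of the 10 in the interaction of APOE4 with APOE2. Replicate numbers did not pair the mice: correlations of same-numbered mice were -0.12 to 0.095 over 30 pairs. The log2 fold change of Gbp9, not called in either, ranged without 1 mouse from -0.080 to 0.093 in the APOE3 line, above 0 without E3H replicate 1 (0.033) or PS/E3H replicate 1 (0.093), and from -0.13 to 0.57 in the APOE2 line, below 0 without PS/E2H replicate 3 (-0.13). Of 330 other values of single genes, 283 kept their direction and side of an adjusted p of 0.05, the fold left aside, 31 no longer passed it, 16 newly passed it and 0 reversed. Limits: 3 or 4 mice per group, paralysis and age tied to genotype, and shared reads between copies.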
